A study of Mus musculus with 12 samples.

Results

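The Period genes Per1, Per2 and Per3 were examined in peak lists from chromatin immunoprecipitation sequencing of BMAL1 (BMAL1-ChIP-seq). A peak is a stretch of the genome where precipitated DNA was enriched. Members were all peaks whose midpoint had a protein-coding start site of Per1, Per2 or Per3 as its nearest start site (GENCODE M21 annotation, mm10 build). The rule found 50 of 35822 peaks, of which 28 were assigned to Per1, 12 to Per2 and 10 to Per3. The cells were primary MAFs, mouse adult fibroblasts of female C57BL6/J origin, grown from ear tissue and cultured at low oxygen, with no genetic change. Senescent cells had received 20 Gy of X-rays and were then cultured for weeks, and controls had received a sham irradiation. The methods of the study give no such culture time for controls. Both groups were synchronized with 100 nM dexamethasone, a glucocorticoid that resets the clock of cultured cells, and were collected 12 hours after it. There were 3 libraries per group, and the labels do not say whether replicates came from separate mice or cultures, so the spread between them may be technical. All values come from 1 time after synchronization and cannot tell a change of level from a change of phase.

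PER proteins are the repressing arm of the circadian clock. BMAL1 and its partner CLOCK bind E-boxes and drive transcription of the Period and Cryptochrome genes, whose products enter the nucleus together and inhibit BMAL1:CLOCK. Per1 and Per2 are also acutely induced by glucocorticoids, and the D-box, bound by DBP, TEF, HLF and the repressor NFIL3, is another clock element of Period promoters. Loss of Per1 or Per2 alters rhythms in mice more than loss of Per3 does. A site upstream of Per2 was the BMAL1-positive locus, beside an intergenic background region, at which the study measured ChIP enrichment by qPCR.

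Per1 lies on the forward strand of chromosome 11 and has 4 annotated protein-coding start sites. The first is at 69095217, the second lies 3731 bp downstream inside the gene at 69098948, and the last ones are at 69100158 and 69100522. Per2 lies on the reverse strand of chromosome 1 with its start site at 91459324, and Per3 on the reverse strand of chromosome 4 with its start site at 151044665.

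Sequences under the peaks at the first and second Per1 start sites and at the Per3 start site are printed from 5′ to 3′ along the gene. Capitals mark the canonical E-box CACGTG in Per1 and the D-box TTATGTAA in Per3. The first holds the pair of E-boxes upstream of the first Per1 start site (chr11:69094868-69095107, forward strand, read from GRCm38.p6, which is mm10). The second ends at the base before the second Per1 start site (chr11:69098699-69098947, forward strand) and the third at the base before the Per3 start site (chr4:151044666-151044915, reverse strand). Both were taken from RefSeq promoters of GRCm38.p6. These held no entry for Per2, and no Per2 sequence is printed.
Per1 first promoter: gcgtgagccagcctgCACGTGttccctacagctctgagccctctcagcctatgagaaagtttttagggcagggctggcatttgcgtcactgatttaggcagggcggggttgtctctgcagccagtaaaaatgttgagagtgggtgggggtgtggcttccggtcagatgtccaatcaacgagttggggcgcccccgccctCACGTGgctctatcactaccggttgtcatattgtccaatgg
Per1 internal promoter: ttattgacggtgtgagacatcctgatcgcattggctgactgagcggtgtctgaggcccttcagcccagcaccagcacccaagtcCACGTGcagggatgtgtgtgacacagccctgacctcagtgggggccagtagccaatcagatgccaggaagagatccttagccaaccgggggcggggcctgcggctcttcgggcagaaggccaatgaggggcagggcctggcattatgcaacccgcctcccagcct
Per3 promoter: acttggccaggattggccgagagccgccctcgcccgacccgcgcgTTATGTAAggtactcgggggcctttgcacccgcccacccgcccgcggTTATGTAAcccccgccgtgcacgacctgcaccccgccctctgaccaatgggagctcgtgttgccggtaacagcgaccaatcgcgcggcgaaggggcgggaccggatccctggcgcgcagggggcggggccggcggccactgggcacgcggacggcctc

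The remaining E-boxes of Per1 lie in introns between the first and the second start site. They are shown because peaks of different libraries reached them to different extents (chr11:69097662-69097691 and chr11:69098408-69098437, forward strand). The outermost D-box of Per3 is shown because only 1 library had a peak over it (chr4:151045317-151045346, reverse strand).
Per1 E-box 3: gaaagctttagcCACGTGacagtgaggggc
Per1 E-box 4: accccttaacgaCACGTGggccctcaattg
Per3 D-box 3: ggtagagacagTTATGTAAaaggagcatcc

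Peak lists give no read depth, and their lengths ran from 2794 peaks in control replicate 1 to 10601 in control replicate 3. Senescent replicates 1, 2 and 3 held 4220, 9805 and 5053 peaks, and control replicate 2 held 3349. Each score, taken to be −log10 q, depends on how deeply and cleanly that library was sequenced. A peak was therefore described by its rank in its own list, counted from the best score, by that rank as a percent of the list, and by its score as a percent of the best score of the list. No list was normalized to another, and the precision of each value is limited by the 3 libraries per group. With 3 against 3 the exact two-sided permutation test cannot go below p = 0.1, so no difference here could pass 0.05.

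BMAL1 peaks were called at all 3 Period genes in all 6 libraries. Among 21840 protein-coding genes, 1123 (5.14%) had a peak in every library. Within 1000 bp of a start site, all 3 Period genes again had a peak in every library, compared with 474 genes (2.17%). The Period genes held 10, 10 and 6 peaks in control replicates 1, 2 and 3 and 7, 9 and 8 peaks in senescent replicates 1, 2 and 3.

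**Figure D1:**
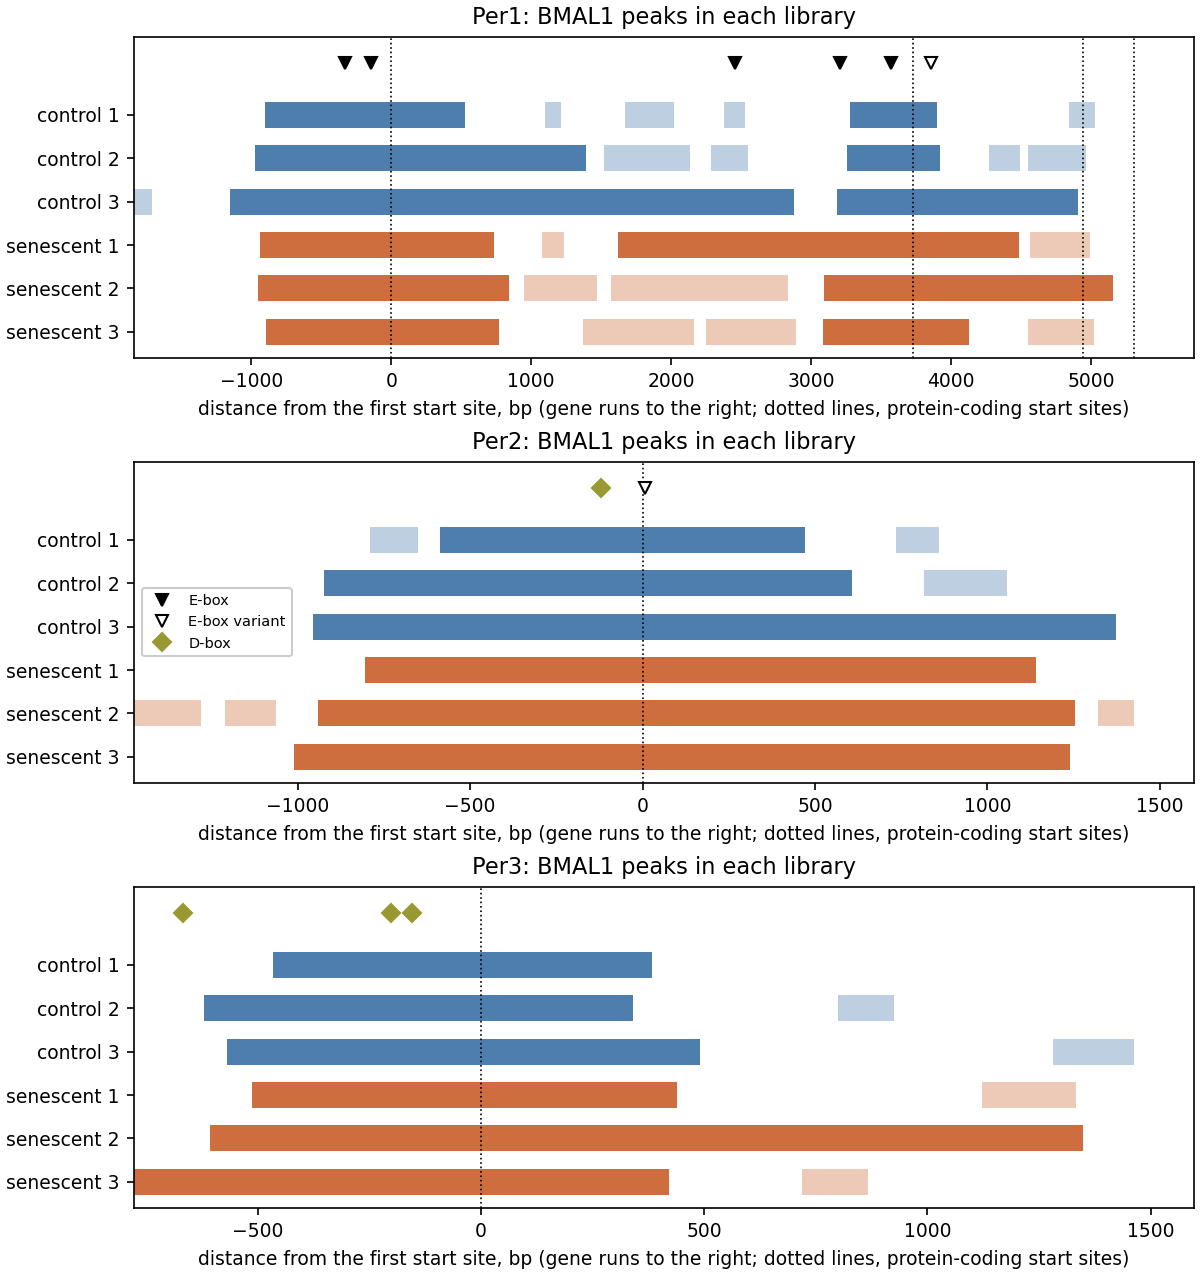
BMAL1 peaks assigned to Per1, Per2 and Per3 in each library, by distance in bp from the first start site (x axis), 1 row per library (blue, control; orange, senescent). Pale bars are peaks scoring under 5% of the best score of their list, dotted lines are protein-coding start sites, and marks on top show E-boxes (filled triangles), the variant CACGTT (open triangles) and D-boxes (diamonds). A strong peak covers the first start site of each gene and the second start site of Per1 in all 6 libraries.

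Per1, the Period gene with the strongest BMAL1 peak, was at or next to the top of every list. Its best peak ranked 2, 1 and 1 in control replicates 1, 2 and 3 and 2, 2 and 1 in senescent replicates 1, 2 and 3. The scores were 869, 1203 and 1644 in control and 1278, 1639 and 1559 in senescent libraries. The groups overlapped in both measures, and the best peak covered the first start site in every library. In percent of the list, the mean rank was 0.0370% ± 0.0317 for control and 0.0292% ± 0.0158 for senescent libraries (SD, n = 3 each; exact permutation test, p = 0.8, adjusted p = 0.941 over the 1123 genes).

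Per2, the Period gene whose loss shortens and then abolishes rhythms in mice, came next. Its best peak ranked 3 in each control library and 4, 3 and 4 in senescent replicates 1, 2 and 3. The scores were 690, 743 and 1016 in control and 1079, 1244 and 1056 in senescent libraries. All senescent scores lay above all control scores, and how many other genes had such scores was not counted. As a percent of the best score of the list the groups overlapped, at 74.4%, 61.7% and 61.8% in control and 62.3%, 64.9% and 67.8% in senescent libraries. The means were 66.0% ± 7.32 and 65.0% ± 2.76 (SD, n = 3 each; exact permutation test, p = 1, adjusted p = 1).

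Per3, which is largely dispensable for the core clock, came last of the 3 in every library. Its best peak ranked 20, 25 and 23 in control replicates 1, 2 and 3 and 18, 15 and 16 in senescent replicates 1, 2 and 3. Every senescent rank was nearer the top than every control rank, with means of 22.7 ± 2.52 and 16.3 ± 1.53 (SD, n = 3 each; exact permutation test, p = 0.1, adjusted p = 0.265). Of the 1123 genes, 18.3% had ranks apart in the same direction. As a percent of the list, the ranks were 0.716%, 0.746% and 0.217% in control and 0.427%, 0.153% and 0.317% in senescent libraries. On that scale the groups overlapped (exact permutation test, p = 0.3, adjusted p = 0.689). With every list held to its 2794 best-scoring peaks, the length of the shortest list, the best Per3 peaks kept their rank numbers. As a percent of 2794 peaks, the means were 0.811% ± 0.0901 for control and 0.585% ± 0.0547 for senescent libraries (SD, n = 3 each; exact permutation test, p = 0.1, adjusted p = 0.259). These are the same ranks on another scale, so their separation repeats that of the rank numbers. Of the 766 genes with a peak in all 6 lists of equal length, 20.8% were apart in that direction. The separation at Per3 therefore held for rank numbers, of which lists of equal length are no separate check, and not for ranks as a percent of lists of unequal length.

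The score of the best Per3 peak was 20.8%, 11.9% and 16.0% of the best score of its list in control and 22.8%, 24.5% and 23.2% in senescent libraries. The groups did not overlap, with means of 16.2% ± 4.44 and 23.5% ± 0.883 (SD, n = 3 each; exact permutation test, p = 0.1, adjusted p = 0.270). This measure was chosen after the values were seen, and 25.5% of the 1123 genes were apart in the same direction. The separation was therefore not particular to Per3. The order Per1, Per2, Per3 held in all 6 libraries, and the ranks of neighbours in that order did not overlap.

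**Figure D2:**
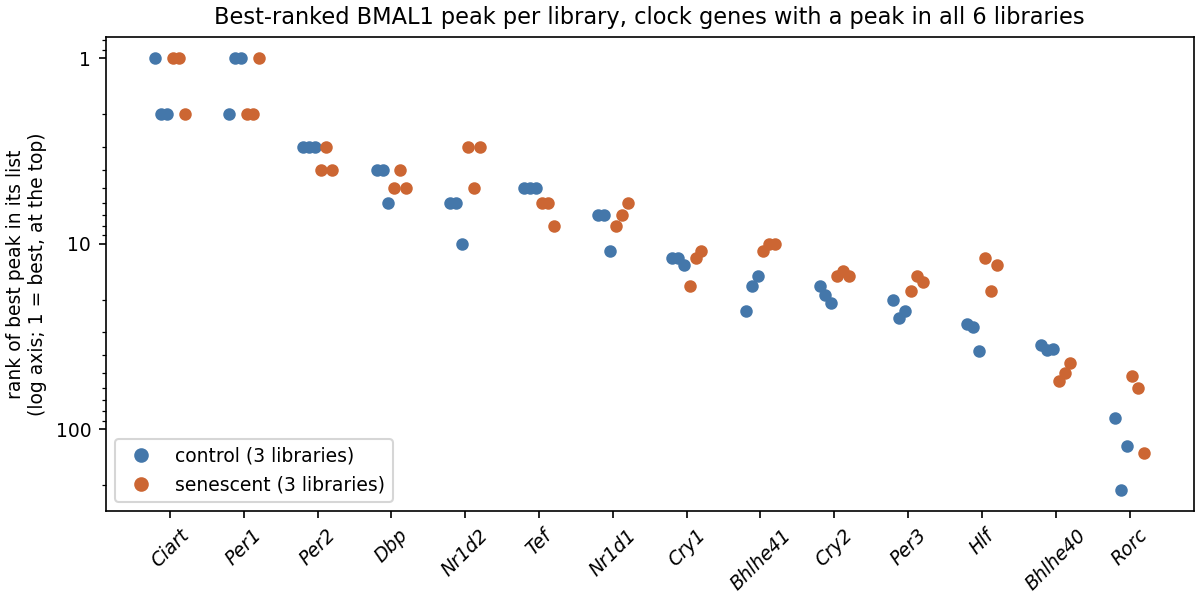
Rank of the best BMAL1 peak in its own list (y axis, log scale, 1 at the top) for the 14 clock genes with a peak in all 6 libraries (x axis), 1 point per library (blue, 3 control; orange, 3 senescent). Per1 points sit at 1 or 2, Per2 points at 3 or 4 and Per3 points between 15 and 25.

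The part of each gene under peaks was wider on average in senescent libraries, with overlapping groups at all 3 genes in the full lists and at Per1 and Per2 in lists of equal length. Per1 had 2859, 4542 and 5882 bases under peaks in control replicates 1, 2 and 3 and 5118, 5645 and 4598 in senescent replicates 1, 2 and 3. Control replicate 1 was lowest and control replicate 3 highest, so the control range held all 3 senescent values. The means were 4428 ± 1515 and 5120 ± 524 bases (SD, n = 3 each; exact permutation test, p = 0.6, adjusted p = 0.824). Without control replicate 1, which has the shortest list, the senescent mean was lower by 91.7 bases. Without control replicate 3, which has the longest, it was higher by 1420 bases.

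Per2 had 1321, 1771 and 2329 bases under peaks in control and 1945, 2641 and 2251 in senescent libraries. Control replicates 1 and 2 lay below all senescent libraries and control replicate 3 lay among them. The difference was 472 bases (exact permutation test, p = 0.3, adjusted p = 0.565), or 733 without control replicate 3, 229 without control replicate 1 and 291 without senescent replicate 2. Per3 had 848, 1087 and 1241 bases in control and 1162, 1955 and 1346 in senescent libraries. Its difference was 429 bases (exact permutation test, p = 0.2, adjusted p = 0.477), or 195 without senescent replicate 2, whose single wide peak was the longest. Of the 1123 genes, 800 had more bases under peaks in senescent libraries, with a median difference of 141 bases, and 25.3% were apart with senescent libraries higher. None of the Period genes was among these in the full lists, and no gene passed an adjusted p of 0.05 in this measure (exact permutation test, smallest adjusted p = 0.341, 0 genes at an unadjusted p under 0.05).

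With every list held to 2794 peaks, senescent libraries had on average 683 more bases under peaks at Per1, 388 more at Per2 and 482 more at Per3. At Per3 the groups were then apart, with 848, 961 and 1059 bases in control and 1162, 1955 and 1198 in senescent libraries (exact permutation test, p = 0.1, adjusted p = 0.254), and at Per1 and Per2 they overlapped (p = 0.6 and 0.3). Of the 766 genes, 33% were apart with senescent libraries higher.

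**Figure D3:**
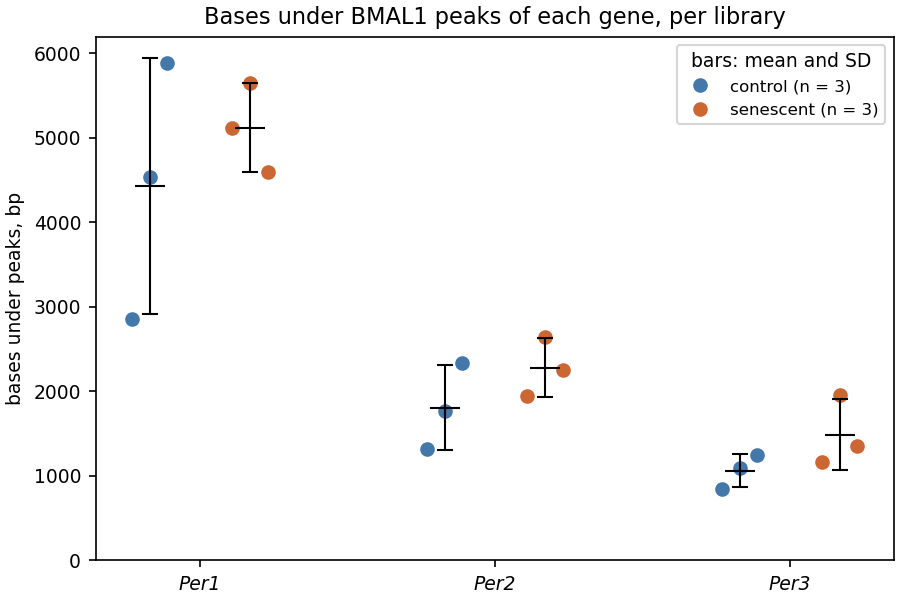
Bases under the peaks of Per1, Per2 and Per3 (y axis, bp) in each library (points, 3 control in blue and 3 senescent in orange), with the mean and SD of each group. The control and senescent points overlap at each gene, and control replicate 1, the leftmost blue point, is the lowest of the 6 at each.

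The peaks lay close to start sites. At Per1 the midpoint of the best peak lay 187 bp upstream and 207 and 864 bp downstream of the first start site in control replicates 1, 2 and 3, and 99, 55 and 62 bp upstream in the senescent libraries. The senescent midpoints fell within 44 bp of each other and the control midpoints spread over 1051 bp, since the control peaks extended to different distances into the gene. At Per2 the distances were -59, -159 and 208 bp in control and 168, 156 and 114 bp in senescent libraries, negative values being upstream. At Per3 they were -42, -141 and -40 bp in control and -37, 370 and -178 bp in senescent libraries. The groups overlapped at all 3 genes (exact permutation test, p = 0.4, 0.4 and 0.7, adjusted p = 0.752, 0.752 and 0.903).

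The library with the most bases under Per1 peaks did not have the most peaks. Per1 had 6, 6 and 3 peaks in control and 4, 4 and 5 in senescent libraries, and the library with the fewest peaks was control replicate 3. Its best peak ran 4032 bp without a break from upstream of the first start site into the gene, where other libraries had a series of shorter peaks. Per2 had 3, 2 and 1 peaks in control and 1, 4 and 1 in senescent libraries, and Per3 had 1, 2 and 2 in control and 2, 1 and 2 in senescent libraries. The groups overlapped at each gene (exact permutation test, p = 0.8, 1 and 1, each with adjusted p = 1).

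Merged over the 6 libraries, the peaks of Per1 formed a region of 6312 bp (chromosome 11, 69094065 to 69100376) and 1 short upstream peak of control replicate 3. Only 2 of the 1106 merged regions called in all 6 libraries, this one included, were as long, and their median length was 671 bp. The region reached from upstream of the first start site through the second to the third start site. The fourth start site was under no peak. Per2 had a region of 2436 bp (chromosome 1, 91457900 to 91460335) and 2 short upstream peaks of senescent replicate 2, and Per3 a single region of 2238 bp (chromosome 4, 151043204 to 151045441). By mean rank these regions were placed 1, 3 and 16 among the 1106. The best peaks of Per1 and of the clock gene Ciart held ranks 1 and 2 between them in every list, with a median rank of 1.5 for each. Per1 was therefore not ahead of Ciart.

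Of the 6439 bases under any Per1 peak, 2613 (40.6%) were under a peak in all 6 libraries, in 5 stretches. The longest, of 1421 bp, ran from 891 bp upstream to 529 bp downstream of the first start site, and another of 618 bp ran from 450 bp upstream to 167 bp downstream of the second. At Per2 the shared part was 1240 of 2779 bases (44.6%), with a main stretch of 1057 bp from 587 bp upstream to 469 bp downstream of the start site. At Per3 it was 1 stretch of 805 bp (36.0% of 2238 bases), from 465 bp upstream to 339 bp downstream. Bases under peaks in all 3 senescent but not all 3 control libraries numbered 1604 at Per1, 705 at Per2 and 130 at Per3. Of these, only 89 at Per1, 0 at Per2 and 0 at Per3 were under no control peak. The converse, bases under peaks in all 3 control but not all 3 senescent libraries, numbered 128 at Per1, 0 at Per2 and 0 at Per3. Of the 128, 0 were under no senescent peak. Such counts were not made for other genes, so they have no share over all genes beside them. Control replicate 1, which has the shortest list, had the fewest bases under peaks at each of the 3 genes, and these counts of shared bases were made on the full lists alone.

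The second Per1 start site was under a peak in every library, separate from the peak at the first. Its peak ranked 61, 39 and 43 in control replicates 1, 2 and 3 and 23, 26 and 23 in senescent replicates 1, 2 and 3. The scores were 58.9, 85.3 and 119 in control and 273, 280 and 252 in senescent libraries. In both measures the groups did not overlap, and how many start sites had unscaled scores apart was not counted. As a percent of the best score of the list, the peak reached 6.35%, 7.09% and 7.23% in control and 15.7%, 14.6% and 16.2% in senescent libraries. The means were 6.89% ± 0.473 and 15.5% ± 0.801 (SD, n = 3 each), a ratio of 2.25 (exact permutation test, p = 0.1, adjusted p = 0.274 over 282 start sites).

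The 282 start sites are those under a peak in all 6 libraries, and this comparison was made after the values were seen. Of them, 35.1% had score percents apart with senescent libraries higher, and 24.5% had ranks apart with senescent libraries nearer the top. The ratio at the second Per1 start site was the 43rd largest, with a median of 1.40 over all. At the first Per1 start site the ratio was 0.882 with overlapping groups (exact permutation test, p = 0.4), at Per2 0.984 and at Per3 1.45. The peak at the first Per1 start site was itself the best of the list in control replicates 2 and 3 and senescent replicate 3. Its percent was therefore fixed at 100 there, and its ratio and p cannot show a difference between the groups above that limit. As a percent of the list, ranks at the second start site overlapped, at 2.18%, 1.16% and 0.406% in control and 0.545%, 0.265% and 0.455% in senescent libraries (exact permutation test, p = 0.3, adjusted p = 0.728). The peaks over this site were 618, 667 and 1723 bp wide in control and 2860, 2065 and 1044 bp in senescent libraries. The widest, in senescent replicate 1, ran on over intronic bases that other libraries called as separate peaks. The third start site was under a peak of rank 2447.5, 835, 973 and 1057 in control replicates 1 and 2 and senescent replicates 1 and 3, and under the wide peak of the second start site in senescent replicate 2.

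**Figure D4:**
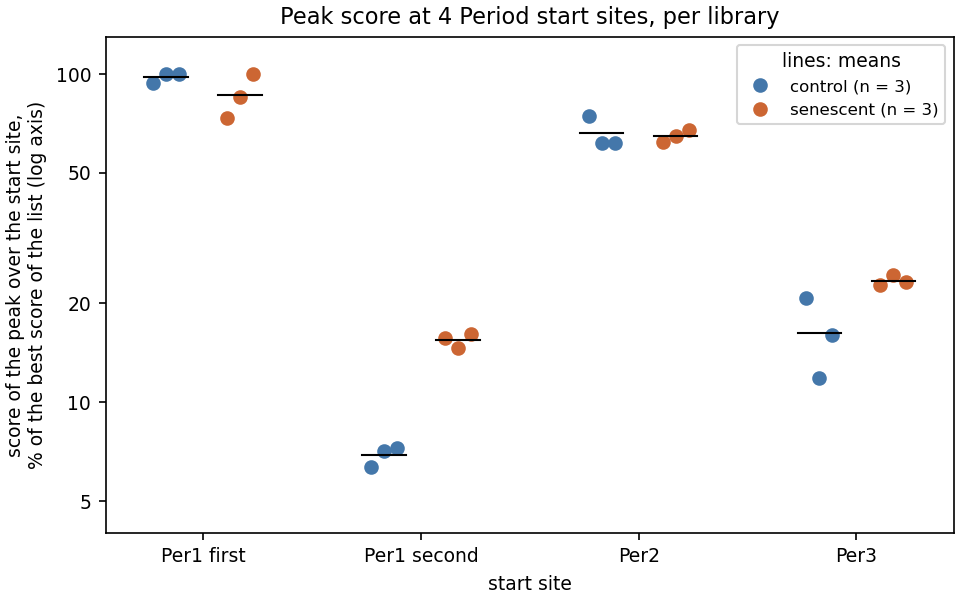
Score of the peak over each of 4 Period start sites as a percent of the best score of its list (y axis, log scale) in each library (points, 3 control in blue and 3 senescent in orange), with group means as lines. At the second Per1 start site the control points sit between 6.35% and 7.23% and the senescent points between 14.6% and 16.2%. At the first Per1 start site and at Per2 the groups overlap. Points at 100% are libraries in which the first Per1 peak is itself the best of the list.

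The sequence under the peaks differed between the members. Exact motifs were searched on both strands, and a match is a description of the sequence and not of a bound site. The main regions of Per1, Per2 and Per3 were 6312, 2436 and 2238 bp long, against a median of 671 bp over the 1106 regions. No count or share of regions with a motif, here or below, was adjusted for length, and longer regions have more room for matches. Per1 held 5 copies of CACGTG, and 9 of the 1106 regions held as many or more. Relative to the nearest start site they began 334 and 150 bp upstream of the first and 1274, 528 and 165 bp upstream of the second. The first and second copies, which stand in the Per1 first promoter above, begin 184 bp apart. The fifth stands in the Per1 internal promoter above.

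Of these E-boxes, 4 were under a peak in all 6 libraries, compared with 18.5% of the 4088 copies of CACGTG under a peak in at least 1 library. The exception was E-box 4, 528 bp upstream of the second start site, which was under a peak in control replicate 3 and in all 3 senescent libraries. Such calls, in all 3 senescent and at most 1 control library, were made at 19.6% of the 4088 copies. E-box 3 was covered by the wide first peak of control replicate 3 and by peaks of lower rank, down to 1029, in other libraries. A CACGTG lay within 100 bp of the midpoint of the best Per1 peak in 4 libraries (39.5, 48.5, 92.5 and 85.5 bp in control replicate 1 and senescent replicates 1, 2 and 3). In control replicates 2 and 3, whose best peaks were the widest, it lay 354.5 and 1011.5 bp away.

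Per2 held no CACGTG in its peaks, and 61.6% of the 1106 regions held one. It held 1 copy of the variant CACGTT, which differs from the E-box in its last base, beginning 5 bp downstream of the start site in the 5′ UTR (chromosome 1, 91459314 to 91459319). The variant was under the best peak in all 6 libraries, 66.5 bp from the midpoint in control replicate 1 and between 106.5 and 200.5 bp from it in the others. It was found in 24.1% of the regions and in 4.68% of 32851 promoters, taken from 250 bp before to 50 bp after each start. Per1 also held a copy, 125 bp downstream of the second start site and under a peak in all 6 libraries.

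Per3 held neither CACGTG nor CACGTT. Among the 25 best-ranked regions called in all 6 libraries it was the only one with neither, and 21 of the 25 held CACGTG. Within the 805 bp shared by all 6 libraries, 4 other hexamers differed from CACGTG by 1 base, namely CACGCG 15 bp, CACGAG 105 bp, CAAGTG 251 bp and CACGGG 338 bp upstream of the start site. The shared stretches of Per1 and Per2 held 9 and 7 such near matches, their copies of CACGTT included.

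Exact copies of the D-box TTATGTAA were found at Per2 and Per3 and not at Per1, and near matches to it were not searched. Per3 held 3 copies of TTATGTAA, beginning 158, 205 and 670 bp upstream of its start site. The nearer pair, which stands in the Per3 promoter above, was under the best peak in all 6 libraries, and the outermost was under a peak in senescent replicate 3 alone. Of the 1106 regions, 37 (3.35%) held a D-box and 3 (0.271%) held 2 or more, and 0.938% of promoters held one. The single D-box of Per2, 125 bp upstream of its start site, was under the best peak in all 6 libraries. Among the 25 best-ranked regions, 5 held a D-box.

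Matches to the short motif CCAAT, found in 63.8% of regions, numbered 18, 3 and 4 in the spans of the Per1, Per2 and Per3 peaks. The other motifs searched were few at the members. Per1 held 1 cAMP response element, TGACGTCA, in an intron 1746 bp upstream of the second start site and under a peak in all 6 libraries, and 4.52% of regions held one. It held 2 matches to the glucocorticoid receptor motif, both intronic. The match 1860 bp downstream of the first start site was under a peak in all 6 libraries and the match 469 bp downstream of the second in 1 control and 2 senescent libraries, and 1.08% of regions held such a match. Per3 held 1, in a coding exon under a peak of senescent replicate 2 alone. All cells had received dexamethasone, so these libraries hold no comparison with cells that had not. The AP-1 motif TGACTCA, found in 22.3% of regions, stood outside the peaks at Per1 and under 1 short upstream peak of senescent replicate 2 at Per2, and was not found at Per3.

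The other clock genes give the setting of these ranks. Of 17 other clock genes listed, 11 had a peak in all 6 libraries and 8 of these ranked within the first 25 in every library. Ranks were apart with senescent libraries nearer the top in 4 (Cry2, Nr1d2, Hlf and Bhlhe41) and with control libraries nearer the top in 2 (Tef and Bhlhe40). Of the Period genes, Per3 was in the first set and none in the second. Over the 1123 genes, 18.3% were apart in the first direction and 19.4% in the second. Cry1 and Cry2, which encode the Cryptochromes that PER proteins pair with, ranked between 11 and 17 and between 14 and 21. Of the 7 genes listed for partners and regulators of PER proteins, these were the only 2 with a peak in every library. Csnk1e, which encodes a kinase that phosphorylates PER proteins, had a weak peak in 3 senescent libraries (ranks 1142, 1082.5 and 1720) and in 0 control libraries. Csnk1d and Btrc had no peak in any list.

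The genes with ranks most like each member, by the mean absolute difference of log2 rank over the 6 libraries, were mostly clock genes too. For Per1 they were Ciart (1.00), which encodes a repressor of BMAL1:CLOCK, Per2 (1.22) and Dbp (1.70). For Per2 they were Dbp (0.48), Tef (0.80) and Nr1d2 (0.88), and for Per3 they were Cry2 (0.20), Gm42791 (0.22) and Dgat2 (0.32).

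Neighbouring genes had no peak or peaks of lower rank. Hes7, downstream of Per1, had a peak in all 6 libraries, with best ranks between 412.5 and 2013. Vamp2, next to Per1, and Uts2, next to Per3, had none in any list. Vamp3, on the other side of Per3, had 1 in 1 control and 1 senescent library at ranks of 5927.5 and 6943. Beside Per2, Hes6 had a peak in 2 senescent libraries and Traf3ip1 in 1 control library. Just outside the rule for Per1 lay 8 peaks beginning 386 to 906 bp past its last base (chromosome 11, 69110346 to 69111185), in control replicates 2 and 3 and all 3 senescent libraries. Their midpoints were 100 to 1090 bp nearer to the start site of Hes7, and they ranked between 527 and 4621.5. The member midpoints farthest from a start site lay 1847 bp downstream at Per1, at -1378 bp (upstream) at Per2 and 1370 bp downstream at Per3.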

How the data were processed

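BMAL1-ChIP-seq gave 3 control and 3 senescent libraries from MAFs. The authors mapped reads to mm10 with the Burrows-Wheeler Aligner, removed duplicates with Picard and called peaks with MACS in each library separately at an FDR of 1% or less. Whether the input served as the control of the caller is not given in the sources used here. The labels and the methods of the study name different suppliers of the BMAL1 antibody. Per the file headers, the libraries shared 1 sequencing lane. The score the authors deposited was read as −log10 of the q-value, inferred from its smallest value per list (2.02 to 2.12). Peaks were assigned to the nearest protein-coding start site by midpoint, and tied scores shared a mean rank. Regions were merged at an overlap of 1 bp. Groups came from the sample titles and were compared by an exact two-sided permutation test over 20 arrangements, with Benjamini-Hochberg adjustment over all genes with a peak in all 6 libraries. Code was tested on simulated data (Python 3.11.15, pandas 2.3.3, pysam 0.24.0). The 6 input libraries were not analysed here, and the read-based comparison of the study was not repeated.

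The members, the gene lists, the motifs and the rule for named genes (the Period genes, the listed clock genes and PER partners, the 3 genes most like each member in rank, and neighbouring genes) were chosen with earlier results of these data known. Alternatives were leaving out each library, the replicate number as a block, other assignments of peaks to genes, a stricter score, lists of equal length and other windows.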

Additional observations from a re-analysis of the deposited data

How the results depend on the processing

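No alternative could bring a difference past 0.05, since the exact permutation test of 3 against 3 cannot go below p = 0.1. Of 225 values recomputed, 204 kept their direction or moved by less than the spread. Some of the 204 could not change. Differences with the replicate as a block are fixed by construction, and a limit of 3000 bp left out no member peak. Differences below are senescent minus control. With ranks as numbers the difference was 0.333 at Per1 and 0.667 at Per2, and with lists of equal length (2794 peaks) it was 0.0119 and 0.0239 percent of the list, against -0.0078 and -0.0069 in full lists. At Per3 lists of equal length gave -0.227 percent of the list, with the groups apart, against -0.261 with the groups overlapping in full lists. The best peak of each member kept its rank number in lists of equal length, so these percents are the rank numbers on another scale. At the start sites, expressing the rank number as a percent of the list likewise gave -0.0078 for Per1 and -0.0069 for Per2. The Per2 score was 8.40 points higher in senescent libraries when set against the score at the first Per1 start site, and differed by -1.04 points when set against the best of the list. The cause was not tested.

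Leaving out 1 library at a time gave differences of -91.7 to 1420 bases under peaks at Per1 (below 0 without control replicate 1), -0.022 to 0.0095 percent of the list for the rank of Per1 (above 0 without control replicate 1), and -0.030 to 0.012 for Per2 (above 0 without control replicates 1 or 2 or senescent replicate 2). It gave -33.2 to 240.8 bp for the distance at Per3 (below 0 without senescent replicate 2) and -3.16 to 3.19 points for the score of Per2 (above 0 without control replicate 1 or senescent replicate 1). At the second Per1 start site the groups stayed apart, with differences of 8.29 to 9.06 points.

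Requiring an overlap of 50% of the shorter peak split Per2 into 4 and Per3 into 2 regions, in place of 3 and 1. An E-box or its variant near the midpoint of the best peak, in 4 libraries at Per1 and 1 at Per2 within 100 bp, was found in 2 and 0 within 50 bp and in 6 and 6 anywhere in the peak.

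Same-numbered libraries of the groups deviated from their group means with correlations of 0.081, -0.044 and -0.0016 over the 1123 genes. Libraries of different numbers gave -0.088 to 0.078. With 3 lists per group these values cannot tell whether the numbers pair the samples. With the replicate as a block, the exact sign-flip permutation test over 3 pairs cannot go below p = 0.25, and the differences (for example 472 bases at Per2, p = 0.5) are unchanged by construction. Peak lists limit every value, since they hold no depth or height, and exact motifs leave out weaker sites.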
